A study of Homo sapiens with 10 samples.

Results

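The genes described here are 10 genes of lysosomal proteolysis: the cysteine cathepsins CTSH, CTSL, CTSS, CTSC and CTSK, the aspartic cathepsin CTSD, the carboxypeptidase gene CPVL, and the cystatin genes CST3, CST7 and CSTB, whose proteins inhibit cysteine cathepsins. Every probe set that the platform annotation assigns to one of these symbols was taken, which gave 12 of 12558 probe sets: 3 for CTSK and 1 for each of the other genes. They were measured on 10 Affymetrix arrays, 5 of cyclophosphamide-sensitive cells of a human chronic myeloid leukaemia (CML) line and 5 of a subline resistant to this drug. CML is driven by the BCR-ABL fusion kinase, and cyclophosphamide is an alkylating drug. The labels do not name the line, the cells of both groups were grown in tissue culture medium, and no drug at harvest is stated. How resistance was raised, and whether the subline is 1 clone or a pool, is not stated either. The labels do not state separate cultures for the replicates, so p-values here reflect only the spread between arrays of a group, part or all of which may be technical.

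Lysosomes break down proteins with cathepsins, which are made as inactive precursors and become active in the acid interior that a proton pump maintains. Cystatins bind the active site of cysteine cathepsins and hold them in check, some outside the cell or in the cytosol and one, the product of CST7, inside the endosomes and lysosomes of blood cells. In white blood cells cathepsins also serve special tasks: CTSC activates the serine proteases of granules, and CTSS trims the invariant chain of MHC class II molecules.

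A signal is the brightness that 1 probe set gave on 1 array, in arbitrary units, and signals of different probe sets are not on one scale. The level below which a signal was not told from background was set for each array by negative control probe sets and lay between 255 and 691. Differences are resistant minus sensitive and are given on the scale log2(signal + 114.8), which understates the change of dim probe sets. A probe set was called where limma gave an adjusted p under 0.05 over all 12558 probe sets. The share of probe sets above the limit was 53.2% to 64.8% in sensitive and 51.9% to 67.7% in resistant arrays, and the GAPDH control probe sets gave 3'/5' ratios of 0.801 to 0.968. Sensitive replicates 4 and 5 stood apart from the other sensitive arrays in some genes, whose values are given with CST3.

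The 10 genes split into a few with very large differences and a majority without a call. CTSH, CTSL and CPVL were higher in resistant cells, each by more than 4 on the log2 scale, CST7 was lower by more than 5, and CTSS, CTSC, CTSD, CTSK, CST3 and CSTB were not called. Thus 4 of the 12 probe sets were called, 3 higher and 1 lower, where 7.41% of all probe sets were called, 4.42% higher and 2.99% lower. The genes were selected on resistant minus sensitive differences of these same arrays, which were already known when they were listed, so the differences and their adjusted p-values describe the genes and are no independent support for their choice. Of the 12 probe sets, 8 were above the limit on at least 3 arrays of a group, and the 4 that were not were those of CTSS and CTSK.

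**Figure D1:**
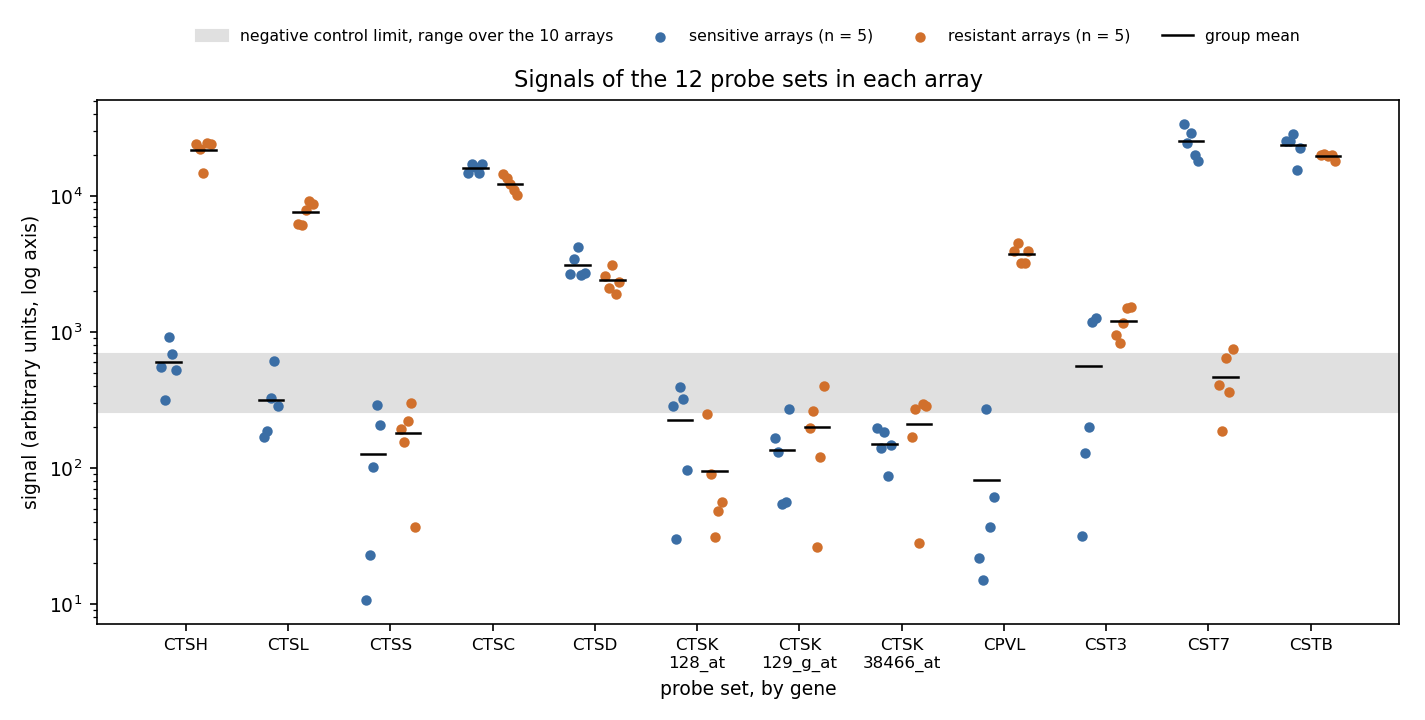
Signals of the 12 probe sets (horizontal axis) on a log axis in arbitrary units, with 1 point per array, black bars for the means of 5 arrays and a grey band for the range of the negative control limit, 255 to 691. The points of both groups lie far apart for CTSH, CTSL, CPVL and CST7, while CTSS and the 3 CTSK probe sets lie in or below the band.

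CTSH, a cysteine cathepsin that trims proteins from their amino end, rose from a weak signal to a bright one. Its signal was 550.0, 313, 921, 689 and 524 in sensitive replicates 1 to 5 and 24026, 22222, 14717, 24578 and 23856 in resistant replicates 1 to 5. The lowest resistant array was far above the highest sensitive array, so the groups did not overlap, and all 10 arrays were above the limit. The mean went from 599 ± 224 to 21879.6 ± 4099 (SD, n = 5 each), a log2 difference of 4.98 (SE 0.25, adjusted p = 2.46e-07, limma). The sensitive cells thus gave a weak signal for CTSH that lay close to the limit. Resistant replicate 3 stood below the other resistant arrays.

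CTSL, an endopeptidase of the same family, showed the same direction from a dimmer start. The signal was 169, 188, 323, 608 and 285 in sensitive replicates 1 to 5 and 6221, 6123, 7906, 9156 and 8759 in resistant replicates 1 to 5. Of the sensitive arrays 1 was above the limit, replicate 4, and all 5 resistant arrays were. The mean went from 315 ± 176 to 7633 ± 1408 (SD, n = 5 each; log2 difference 4.24, SE 0.26, adjusted p = 1.13e-06, limma). With a larger pseudocount, the 40th percentile of all signals, the log2 difference was 3.51. Pseudogenes related to CTSL exist, and whether its probe set also detects them is not known here.

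CPVL encodes a serine carboxypeptidase that is known from macrophages, and its sensitive signals were all in the background range. The signal was 21.6, 14.9, 272, 36.7 and 61.3 in sensitive replicates 1 to 5, all at or below the limit, and 3952, 4480.3, 3226, 3182 and 3911 in resistant replicates 1 to 5, all above it. Because the sensitive signals carry only a bound, the rise was at least 9.41-fold, taking the mean log2 signal of resistant arrays over that of the limit in sensitive arrays. The fitted log2 difference was 4.42 (SE 0.29, adjusted p = 1.4e-06, limma), and it was 5.45 and 3.13 with the 5th and the 40th percentile of signals as pseudocount. The size of this rise therefore depends on the pseudocount, while its call did not.

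The sequences before the start sites of CTSH, CTSL and CPVL are shown because these are the 3 genes called higher. Whether they are regulated jointly was not tested. Each is the 250 bases before the RefSeq gene start in GRCh38.p14, 5′ to 3′ on the strand of the gene, with matches to the searched motifs in capitals. CTSH is at chr15:78945047-78945296 on the minus strand, CTSL at chr9:87725869-87726118 on the plus strand and CPVL at chr7:29195268-29195517 on the minus strand.
CTSH: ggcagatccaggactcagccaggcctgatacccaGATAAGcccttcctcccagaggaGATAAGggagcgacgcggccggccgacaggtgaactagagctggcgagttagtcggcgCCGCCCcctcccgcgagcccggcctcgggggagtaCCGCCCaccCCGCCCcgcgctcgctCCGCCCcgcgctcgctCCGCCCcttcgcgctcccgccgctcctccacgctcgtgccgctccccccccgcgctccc
CTSL: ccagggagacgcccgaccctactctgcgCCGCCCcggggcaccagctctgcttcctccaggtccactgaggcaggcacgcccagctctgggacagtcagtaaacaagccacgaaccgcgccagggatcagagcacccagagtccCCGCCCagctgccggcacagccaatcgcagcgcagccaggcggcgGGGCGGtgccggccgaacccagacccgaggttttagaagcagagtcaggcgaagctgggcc
CPVL: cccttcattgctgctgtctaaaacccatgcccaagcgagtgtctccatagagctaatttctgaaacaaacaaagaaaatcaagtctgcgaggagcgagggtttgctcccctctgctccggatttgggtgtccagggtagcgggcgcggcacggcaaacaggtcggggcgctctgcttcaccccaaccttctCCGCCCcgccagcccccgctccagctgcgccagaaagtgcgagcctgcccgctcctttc
The 5 motifs, searched on both strands, were CACGTG (the E-box bound by MYC and by the TFEB family that controls lysosomal genes), GGAAGT (an ETS core), GATAAG (the core bound by GATA factors), GGGCGG (the GC box, CCGCCC on the other strand) and TATAAA. The CTSH sequence held GATAAG at 216 and 193 bases before the start and 5 GC boxes, CTSL held 3 GC boxes and CPVL held 1. Sequences were matched for 6 of the 10 genes, these 3 and CTSC, CTSD and CST3. CTSS, CTSK, CST7 and CSTB were not matched. All 6 held a GC box, as did 42.3% of 27305 promoter windows of the same length, and 1 of the 6, CTSH, held GATAAG, against 5.65%. CACGTG occurred in CTSD, 47 bases before the start, and in 6.49% of all windows. Neither GGAAGT (19.9% of all windows) nor TATAAA (11.1%) occurred in the 6. A match of letters is a description and shows no binding.

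CTSS and CTSK are neighbours on chromosome 1, and their probe sets gave almost no signal above the limit. CTSS, the cathepsin that trims the invariant chain in antigen-presenting cells, was 10.7, 22.8, 101, 289 and 205 in sensitive replicates 1 to 5 and 192, 154, 219, 298 and 36.5 in resistant replicates 1 to 5. All 10 values were at or below the limit and the groups overlapped, so no fold is given (adjusted p = 0.69, limma). For CTSK, the collagen-degrading cathepsin of osteoclasts, the 3 probe sets come from 1 transcript record and gave 1 signal above the limit, 397 in resistant replicate 5 for probe set 129_g_at. The 3 probe sets did not point one way, with log2 differences of -0.63 for 128_at, 0.27 for 129_g_at and 0.21 for the remaining one (adjusted p = 0.43, 0.774 and 0.804, limma).

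CTSC, also called dipeptidyl peptidase I, removes the activation dipeptide from the serine proteases of myeloid and lymphoid granules. It was bright in every array, at 14819, 17066, 16307, 14762 and 17077 in sensitive replicates 1 to 5 and 14532, 13418, 12227, 10957 and 10129 in resistant replicates 1 to 5. The groups did not overlap, which held for 8.5% of all probe sets, 3.56% with resistant arrays lower, yet the difference was small beside those of the 4 called genes and was not called itself. The means were 16006 ± 1153 and 12253 ± 1785 (SD, n = 5 each), and the log2 difference was -0.39 with a 95% interval of -0.75 to -0.03 (adjusted p = 0.231, limma).

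CTSD, the aspartic cathepsin, was above the limit in all arrays. Its signal was 2643, 3414, 4233, 2597 and 2705 in sensitive replicates 1 to 5 and 2588, 2115, 3096, 1884 and 2313 in resistant replicates 1 to 5, and the groups overlapped. The log2 difference was -0.36, with a 95% interval of -0.80 to 0.09 (adjusted p = 0.409, limma), which leaves room for no change and for a fall of 0.80 on the log2 scale.

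Among the inhibitors, CST7 was the one with a call. CST7 encodes cystatin F, an inhibitor made by immune cells and directed to lysosomes, where CTSC is one of its known targets. The signal was 33864, 24485, 29004, 19906 and 18147 in sensitive replicates 1 to 5, and 407, 186, 646, 358 and 742 in resistant replicates 1 to 5. The resistant values were thus 742 or less, above the limit in 3 arrays, while every sensitive value was 18147 or more. The mean fell from 25082 ± 6476 to 468 ± 225 (SD, n = 5 each; log2 difference -5.49, SE 0.30, adjusted p = 4.45e-07, limma). With the 40th percentile of signals as pseudocount the log2 difference was -4.88.

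CST3, cystatin C, is the secreted inhibitor made by most cell types. The signal was 31.5, 129, 199, 1187 and 1269 in sensitive replicates 1 to 5 and 953, 820.2, 1154, 1508 and 1524 in resistant replicates 1 to 5. Sensitive replicates 4 and 5 lay within the range of the resistant arrays, and the other 3 sensitive arrays were below the limit. The spread among sensitive arrays was as large as their mean (563 ± 611, SD, n = 5), against 1192 ± 319 in resistant arrays. The log2 difference was 1.48, with a 95% interval of 0.22 to 2.73, and it was not called (adjusted p = 0.184, limma). The same 2 sensitive arrays stood apart in other genes. GATA1, an erythroid transcription factor, was 431, 510.5 and 968 in sensitive replicates 1 to 3 and 3800.2 and 3650.3 in replicates 4 and 5. EPX, eosinophil peroxidase, was 4885, 3585 and 4039 against 40734 and 38859, and CLC, another eosinophil gene, was 3813, 3860.2 and 3590.3 against 41628 and 107507. The sensitive group was thus not uniform. Without these 2 arrays, a choice made after seeing the data and in part from the CST3 values themselves, the CST3 log2 difference was 2.51 (SE 0.31, adjusted p = 0.000799, limma), and the calls of the other 9 genes were as with all arrays.

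CSTB, or stefin B, is a cystatin of the cytosol. Its signal was 25436, 25083, 28608, 15591 and 22407 in sensitive replicates 1 to 5 and 19959, 20197, 19464, 20105 and 18068 in resistant replicates 1 to 5, with the groups overlapping. The log2 difference was -0.23, with a 95% interval of -0.64 to 0.18 (adjusted p = 0.606, limma). The arrays of the resistant group lay close together (19558 ± 880.0, SD, n = 5), those of the sensitive group less so (23425 ± 4901). CST3 and CST7, both on chromosome 20, thus had fitted differences of opposite sign, and CSTB, on chromosome 21, a small one.

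**Figure D2:**
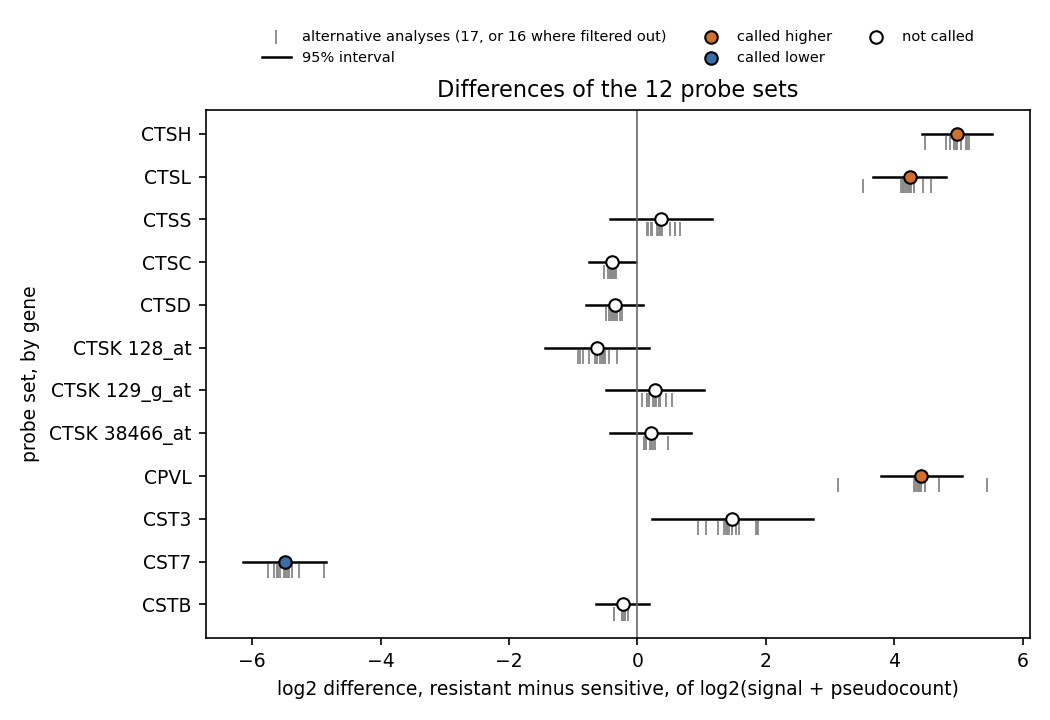
Log2 difference, resistant minus sensitive (horizontal axis), of each of the 12 probe sets, with its 95% interval (black line) and the values under the alternative analyses (grey ticks); filled points were called. CTSH, CTSL and CPVL lie to the right of 4, CST7 lies at -5.49, and the grey ticks of every probe set keep the sign of its point.

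CTSC is known to act on granule serine proteases, and 4 of 10 measured genes of that family were lower, 0 higher and 6 not called. The 4 were the neutrophil genes PRTN3, AZU1, ELANE and CTSG. The family's median log2 difference was -0.28, against 0.03 over all 8226 genes represented by their brightest probe set, of which 8.4% were called, 4.94% higher and 3.46% lower. PRTN3, proteinase 3, was 34495, 40262, 22083, 20364 and 40187 in sensitive replicates 1 to 5 and 119, 59.4, 152, 129 and 491 in resistant replicates 1 to 5. AZU1, an inactive member of the family, was at least 26.2-fold lower, and ELANE, neutrophil elastase, at least 2.40-fold lower, both at or below the limit in all resistant arrays. These groups did not overlap.

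CTSG, the serine protease cathepsin G, was 11912, 9035, 3008, 1773 and 1675 in sensitive replicates 1 to 5 and 602, 626, 155, 891 and 1443 in resistant replicates 1 to 5. Its log2 difference was -2.47 (SE 0.60, adjusted p = 0.026, limma), a call lost in 6 of 17 alternative analyses at adjusted p-values of up to 0.069. The granzyme genes GZMA, GZMB, GZMH, GZMK and GZMM and the mast cell chymase gene CMA1 were not called. GZMB and GZMK did not exceed the limit on any array. GZMA and GZMM exceeded it on 1 resistant array each, and CMA1 on 2 sensitive arrays and 1 resistant array. Of the 10 measured genes of the family, 5 were above the limit on at least 3 arrays of a group: PRTN3, AZU1, ELANE, CTSG and GZMH. For the others the lack of a call says little. In the same arrays the CTSC difference was -0.39 and the CST7 difference -5.49.

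**Figure D3:**
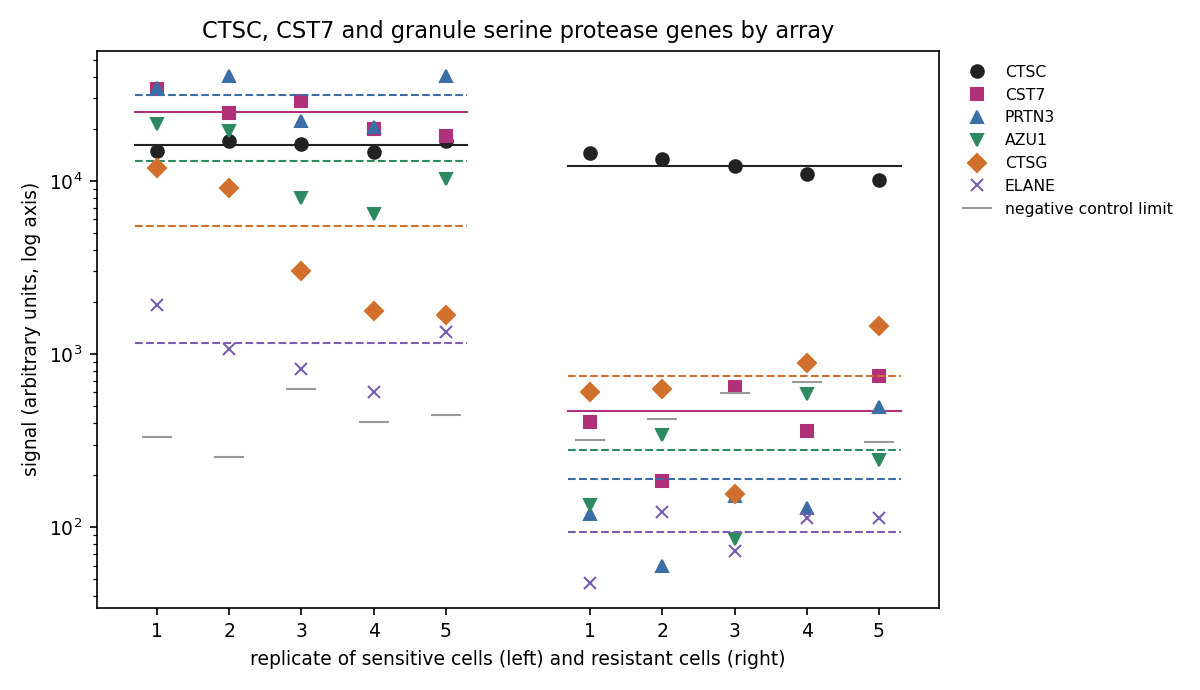
Signals of CTSC, CST7 and 4 granule serine protease genes on a log axis in arbitrary units, by array, with 5 sensitive arrays on the left and 5 resistant arrays on the right; horizontal lines are group means and grey dashes the negative control limit. CTSC stays at 10129 or more in all arrays, whereas CST7, PRTN3, AZU1 and ELANE are above the limit in all sensitive arrays and lower in every resistant array, where PRTN3 exceeds it in 1 array, CST7 in 3 and AZU1 and ELANE in 0.

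Most, but not all, markers of granulocytes moved in the same direction as CST7. Of 13 measured granulocyte markers, 9 were lower and 0 higher, where 3.46% of all genes were lower and 4.94% higher. Of the 13, 3 are genes of the protease family just described. MPO, LTF, CAMP and FCGR3B were not called, with log2 differences of 0.25, 0.65, 0.59 and -0.27. Of these only CAMP was above the limit on at least 3 arrays of a group. The 13 markers had a summed signal of 185030 to 472053 in sensitive and 2408 to 4974 in resistant arrays. This sum adds probe sets of unlike scale, and the eosinophil gene PRG2 alone gave 87498 to 231416 of it in sensitive arrays. In bulk samples, fewer cells of a type and less RNA per cell cannot be told apart. CTSH, CTSL, CTSS, CPVL and CST3 are also expressed by monocytes and macrophages, of whose 14 measured markers 2 were higher (TLR2 and AIF1) and 0 lower, against the same shares of all genes. AIF1 was called in 1 of its 3 probe sets, with a log2 difference of 0.99 and an adjusted p of 0.0268 (limma), and lost its call in 8 of 17 alternative analyses at adjusted p-values of up to 0.092. TLR2 (log2 difference 1.44) was above the limit on 3 resistant arrays and 0 sensitive ones. The summed signal of that list was 2966 to 4144 in sensitive and 3524 to 7075 in resistant arrays. The markers FCGR3A, MRC1, MSR1, FCN1, VCAN and MARCO did not exceed the limit on any of the 10 arrays, and CD14 and CSF1R exceeded it on 1 each. CD68 and ITGAX exceeded it on 8 arrays each, with log2 differences of 0.96 and 0.99 that were not called (adjusted p = 0.425 and 0.292, limma). Among markers of other lineages, the erythroid gene KLF1 (log2 difference 2.87, adjusted p = 0.000206, limma) and the megakaryocyte gene ITGA2B (log2 difference 3.40, adjusted p = 1.81e-06, limma) were higher, each the 1 called of 6 measured markers, and the stromal gene LUM was lower (log2 difference -2.07, adjusted p = 0.00317, limma), the 1 called of 8. All 3 kept their call in 17 of 17 alternative analyses. In their brightest probe sets, none of the 4 osteoclast, 13 T and NK cell and 6 B cell markers was called by limma. Of them, 0, 1 and 0 were at an unadjusted p under 0.05. Only 1, 6 and 2 of these markers were above the limit on at least 3 arrays of a group. The absence of calls thus says little about the rest. The osteoclast marker ITGB3 was called in 1 of its 3 probe sets, though not in the brightest. The part of any of these cell types in these results was not tested.

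CTSS serves antigen presentation, whose genes here are those of the invariant chain and MHC class II. Of the 11 measured, 7 were above the limit on at least 3 arrays of a group, as were 5582 of all 8226 genes. CD74, the invariant chain, did not exceed the limit on any array (log2 difference 0.21, adjusted p = 0.746, limma). Of 11 measured genes of the invariant chain and MHC class II, 2 were higher, 0 lower and 9 not called, where 4.94% of all genes were higher and 3.46% lower. HLA-DMA, which helps class II molecules exchange peptides, was 89.6, 419.7, 82.8, 481 and 74.0 in sensitive replicates 1 to 5 and 974, 615, 869, 1036 and 1371 in resistant replicates 1 to 5. Its log2 difference was 1.82 (SE 0.37, adjusted p = 0.00839, limma). The call of HLA-DPB1 (log2 difference 0.74), which was above the limit on 2 resistant arrays and 0 sensitive arrays, was lost in 12 of 16 alternative analyses, at adjusted p-values of up to 0.208, and its other probe set had a log2 difference of -0.58 (adjusted p = 0.334).

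Other genes of the lysosome showed few calls. None of 12 other lysosomal peptidase genes was called by limma, with 3 at an unadjusted p under 0.05, and none of 7 other cystatin genes, with 0 at that level. Of these 12 and 7 genes, 10 and 2 were above the limit on at least 3 arrays of a group. Of 33 genes of lysosomal hydrolases and membrane proteins 1 rose and 0 fell, of 14 proton pump subunit genes 1 rose and 0 fell, and of 11 genes of sorting receptors and lysosomal transcription factors 0 were called, with 1 at an unadjusted p under 0.05. Median log2 differences were 0.21, 0.10, 0.12, -0.02 and -0.15 for these 5 lists in that order, against 0.03 over all genes. TFEB, the factor that controls many lysosomal genes, did not exceed the limit on any array.

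These counts use the brightest probe set of each gene, and the 2 genes that rose were NPC2 and ATP6V0E1. NPC1, a cholesterol transporter of the lysosomal membrane, was not called in that probe set (log2 difference -0.29) but was lower in its other one (-0.75, adjusted p = 0.0269, limma). NPC2, a cholesterol-binding protein of the lysosomal lumen, was 2315, 2484, 2668, 2857 and 3009 in sensitive replicates 1 to 5 and 6677, 5270.2, 6073, 8513 and 7055 in resistant replicates 1 to 5, without overlap (log2 difference 1.28, SE 0.18, adjusted p = 0.000625, limma). ATP6V0E1, a small subunit of the proton pump, went from 8465 ± 2434 to 15333 ± 1779 (SD, n = 5 each; log2 difference 0.89, adjusted p = 0.0286, limma), a call lost in 8 of 17 alternative analyses at adjusted p-values of up to 0.107 and not made in its other probe set (0.65, adjusted p = 0.28). The rises of CTSH, CTSL and CPVL, each above 4 on the log2 scale, stood beside no called rise above 1.28 in these 5 lists. CTSH, CTSL and CPVL are among the genes selected on these differences, so this contrast only describes them.

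**Figure D4:**
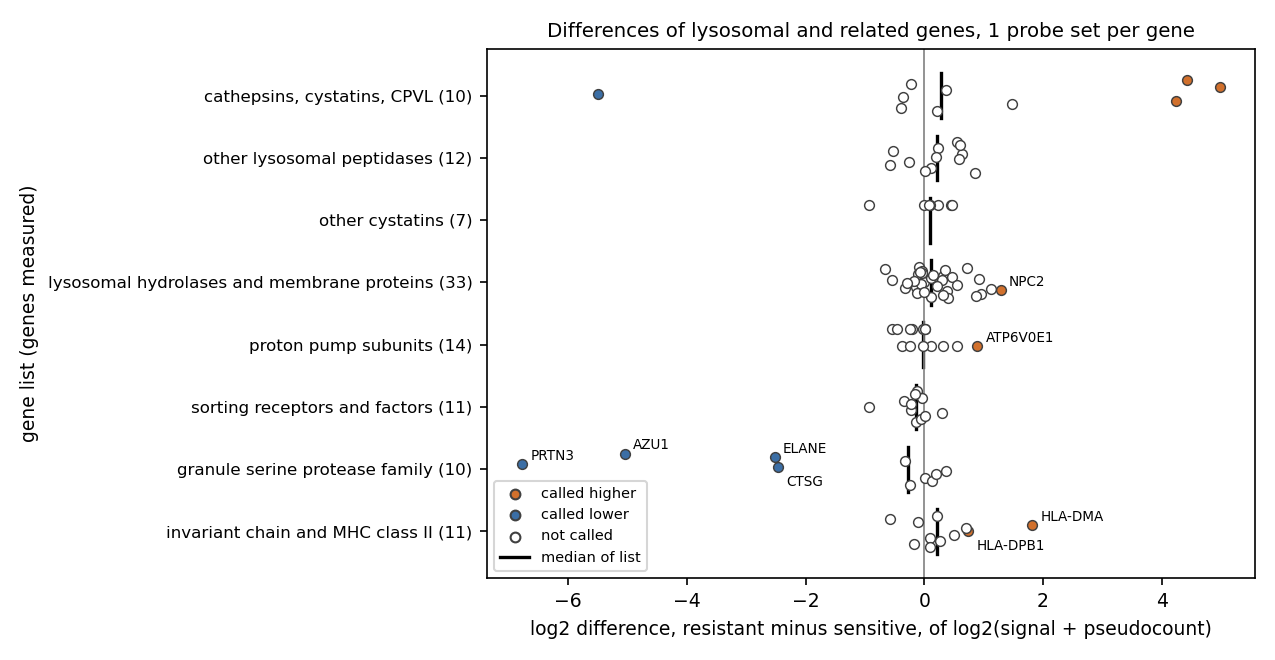
Log2 differences, resistant minus sensitive (horizontal axis), of the genes in 8 lists, with 1 point per gene, filled where called, and a black bar for the median of each list. Most lysosomal genes lie within 1 of zero; CTSH, CTSL, CPVL, CST7 and the granule protease genes PRTN3 and AZU1 lie beyond 4 in either direction.

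The genes with the most similar pattern over the 10 arrays were found by Pearson's r of log2 values, among genes above the limit on at least 3 arrays of a group. Because the groups stand apart, r mostly reflects the difference between the groups, and it is given as a description. For CTSH they were RTN1, ALDH1A1 and PPP1R13B (r of 0.993, 0.992 and 0.992), for CTSL they were ALDH2, ALDH1A1 and FERMT2 (0.993, 0.987 and 0.987) and for CPVL they were MARCKS, FSCN1 and RTN1 (0.995, 0.994 and 0.992). For CST7 they were PRTN3, ATP11B and COX7A2 (0.989, 0.985 and 0.984). ALDH1A1, an aldehyde dehydrogenase that can oxidise a metabolite of cyclophosphamide, had a mean signal of 28.0 ± 15.5 in sensitive cells and of 73953 ± 11708 in resistant cells (SD, n = 5 each).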

How the data were processed

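RNA of 5 sensitive and 5 resistant samples was measured on 1 array each, with groups and replicate numbers taken from the sample titles. The deposited values are an intensity per probe set on a linear scale, made by the authors with MAS5, per the submitters' processing notes; its version and settings are not stated there. The 2% trimmed means of the deposited columns lay between 2501.33 and 2501.51, so arrays had been scaled before. Of 12625 rows, 67 control probe sets were left out of tests. Names came from the platform annotation, updated by Entrez identifier: 10943 probe sets had 1 symbol, 545 several and 1070 none.

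Arrays were scaled to a common 2% trimmed mean and log2(signal + 114.8), with the 20th percentile of all signals as pseudocount, was fitted with lmFit and eBayes of limma 3.58.1 (R 4.3.3), without covariates, with Benjamini-Hochberg adjustment over 12558 probe sets. For each array, 23 control probe sets gave the negative control limit, as the 95th percentile of these bacterial, yeast and mouse signals. A gene's representative was its brightest probe set. Named were all probe sets of the 10 genes, the called genes of 7 wider lists, and the 3 most similar genes of each called one; TFEB, CD74 and uncalled list members were named after their values were seen. The genes and lists were chosen with earlier results of these data known. The fit was tested on simulated data. The number of arrays limits the precision. Protein sequences were not used here.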

Additional observations from a re-analysis of the deposited data

Results flagged for a closer look

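In 3 of 24 groups of 5 arrays of the 12 probe sets, 1 array stood apart. Its gap to the nearest array took more of the group's range than the Dixon test allows at its 95% level. Chance flags about 1 in 20 groups of normally distributed values. The gap shares were taken from signals on the linear scale, so this rate need not hold here. For CTSH, resistant replicate 3 (14717) lay below the other resistant arrays, the nearest being 22222 (gap share 0.761). For CPVL, sensitive replicate 3 (272) lay above the others, the nearest being 61.3 (0.819), all at or below the limit. For CTSK probe set 128_at, resistant replicate 1 (250.1) lay above the others (0.732), also at or below the limit.

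Among other genes named here or used as markers, the same was found in resistant arrays for PRTN3 (replicate 5, 491, gap share 0.786), the megakaryocyte marker ITGA2B (replicate 5, 19302, 0.812) and FERMT2 (replicate 2, 671, 0.796). In sensitive arrays it was found for RTN1 (replicate 3, 152, 0.714), MARCKS (replicate 3, 342, 0.730), ALDH2 (replicate 4, 535, 0.925) and FERMT2 (replicate 4, 175, 0.865). In all, 10 of 84 groups were flagged. Sensitive replicate 3, where CPVL, RTN1 and MARCKS stood high, had the highest negative control limit of the sensitive arrays, 627.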

How the results depend on the processing

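The 12 probe sets were refitted under 17 alternatives: the 5th and the 40th percentile as pseudocount, a common median, quantile normalization, a low-value filter, a trended robust prior, replicate number as a block, and each array left out in turn. In all 200 refits, which leave out the filter for CTSS and CTSK, the sign and the call were as reported. Sensitive replicates 4 and 5 were left out together, a choice made after seeing the data and in part from the CST3 values themselves. CST3 was then called as well, 5 of the 12, which is no independent support for a CST3 difference. In all, 788 probe sets were then called. HLA-DPB1, ATP6V0E1, AIF1 and TLR2 lost their calls (adjusted p = 0.118, 0.126, 0.0573 and 0.0862, limma). With each array left out in turn, 691 to 860 probe sets were called in all, 4 of the 12 in each case, and 5 to 10 of the 98 genes of the wider lists, where 8 were called with all arrays. The count of 5 came without sensitive replicate 1 and without resistant replicate 1. Equal replicate numbers share no stated source, and deviations of same-numbered arrays correlated at 0.0333 to 0.213, highest with their own number for 3 of 5. With the replicate number as a block 794 probe sets were called, against 931, and 4 of the 12. With a common median 438 were higher and 422 lower, against 555 and 376. With the 75th percentile of the negative controls as limit, 9 of the 12 probe sets were above it on at least 3 of the 10 arrays. This count takes both groups together, unlike the rule of at least 3 arrays of a group used above. Of these, only CTSK probe set 129_g_at did not reach 3 arrays of a group, with 2 sensitive and 1 resistant. With 32 control probe sets, a choice made after seeing the data, 8 were above the limit on at least 3 of the 10 arrays. Signal over background limits what can be said of CTSS and CTSK.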

Other observations

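The chromosomal neighbours of the 10 genes were examined by a rule chosen after the data were seen: the 2 nearest measured genes on each side, leaving out the 10 genes themselves. Of 33 such neighbours 2 were called higher and 0 lower by limma, where 8.4% of all genes were called, 4.94% higher and 3.46% lower. The count is thus close to the share over all genes. Both lie on the same side of CTSL on chromosome 9. They were DAPK1, a kinase linked to cell death, which is the protein-coding gene next to CTSL, and GAS1, a growth arrest gene, which is the next one beyond it. DAPK1 was 729, 986, 363, 1472 and 917 in sensitive replicates 1 to 5 and 2267, 1928, 1716, 2059 and 2096 in resistant replicates 1 to 5, without overlap. Its log2 difference was 1.18 (SE 0.28, adjusted p = 0.0225, limma), a call lost in 4 of 17 alternative analyses at adjusted p-values of up to 0.058. GAS1 went from 430.2 ± 227 to 1272 ± 284 (SD, n = 5 each; log2 difference 1.43, SE 0.31, adjusted p = 0.0129, limma), was called in both of its probe sets and kept its call in all 17 alternatives. On the other side of CTSL the nearest measured gene, CDK20, had a log2 difference of 0.08 and was above the limit on 1 array. No measured neighbour of CTSH, CPVL or CST7 was called.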
